A study of Homo sapiens with 2 samples.

Results

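The regions described here are the accessible stretches of DNA of the major histocompatibility complex (MHC) on the short arm of chromosome 6, found by ATAC-seq in human embryonic stem cells of the line WIBR3. A peak was a member when its summit lay in hg38 chr6:29500000-33500000, a window of 4 Mb. That rule took 615 of 295753 peaks of the primed library and 533 of 299673 peaks of the hTBLC library, which joined into 442 and 403 separate regions. ATAC-seq cuts open chromatin with a transposase, so a region with many fragments is DNA that was reachable in many of the cells, and fewer cells with the region open cannot be told apart from fewer cuts per cell.

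The study compared 1 library of primed WIBR3 cells, the usual state of human embryonic stem cells in culture, with 1 library of hTBLCs, cells of the same line that the study, by its title, carried to a totipotent state by repressing the spliceosome. The 2 sample labels name no agent, dose, time in culture or other allele, and both give the cell type as hESC. With 1 library in each group the difference has no replicate check, no test across conditions was possible, and all intervals below cover counting error only. Neither label says whether other cultures were made.

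The MHC is the densest gene cluster of the immune system. Class I molecules (HLA-B and HLA-C among them, and the non-classical HLA-E, HLA-F and HLA-G) sit on the surface of nearly all cells with a peptide from the cell's own proteins and with the light chain B2M, and embryonic stem cells are known to carry little of them until interferon is given. Class II molecules (HLA-DR, HLA-DQ and HLA-DP) show peptides taken up from outside and are made mainly by B cells, dendritic cells and macrophages, under the coactivator CIITA and the RFX and NF-Y proteins that bind the X and Y boxes of their promoters. The class III segment between them holds complement and cytokine genes next to many genes that all cells use.

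The sequences that follow are the 250 bases before the start of 9 genes on whose start regions the results turn, printed 5′ to 3′ on the gene's strand from RefSeq's GRCh38.p14. They are the reference sequence, not the alleles of WIBR3. Capitals mark matches on either strand to 5 short motifs, which are the interferon response type GAAANNGAA, the kappa B type GGGNNTTCC, the Y box CTGATTGG, the X box TAGCAAC and the GC box GGGGCGG. HLA-DMA, HLA-DOA and HLA-DRB1 are shown because their start regions were lower in hTBLCs, HLA-DQB1 and HLA-DMB because theirs were not, HLA-DPB1 because it had a region in hTBLCs only, HLA-C and HLA-B as a class I pair with unlike ratios, and TAP1 as a shared start of the antigen processing group.
HLA-DMA, chr6:32953098-32953347, minus strand: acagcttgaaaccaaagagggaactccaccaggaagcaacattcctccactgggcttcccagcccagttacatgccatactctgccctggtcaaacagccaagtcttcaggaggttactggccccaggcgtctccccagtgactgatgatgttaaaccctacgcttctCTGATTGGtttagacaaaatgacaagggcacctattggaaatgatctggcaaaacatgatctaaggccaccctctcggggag
HLA-DOA, chr6:33009592-33009841, minus strand: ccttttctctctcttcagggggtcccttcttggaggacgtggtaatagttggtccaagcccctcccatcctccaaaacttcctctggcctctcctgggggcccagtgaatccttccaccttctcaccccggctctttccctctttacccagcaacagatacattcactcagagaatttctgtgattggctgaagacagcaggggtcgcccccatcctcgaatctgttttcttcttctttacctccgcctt
HLA-DRB1, chr6:32589849-32590098, minus strand: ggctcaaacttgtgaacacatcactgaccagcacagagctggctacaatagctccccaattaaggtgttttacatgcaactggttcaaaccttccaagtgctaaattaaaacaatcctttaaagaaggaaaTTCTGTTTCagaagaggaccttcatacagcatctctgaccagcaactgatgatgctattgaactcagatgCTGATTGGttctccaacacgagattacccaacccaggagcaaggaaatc
HLA-DQB1, chr6:32666658-32666907, minus strand: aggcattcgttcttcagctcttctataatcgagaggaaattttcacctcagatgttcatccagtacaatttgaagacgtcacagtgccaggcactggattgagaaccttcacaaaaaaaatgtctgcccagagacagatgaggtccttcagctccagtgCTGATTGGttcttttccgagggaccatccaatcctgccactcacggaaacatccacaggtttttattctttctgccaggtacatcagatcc
HLA-DMB, chr6:32941029-32941278, minus strand: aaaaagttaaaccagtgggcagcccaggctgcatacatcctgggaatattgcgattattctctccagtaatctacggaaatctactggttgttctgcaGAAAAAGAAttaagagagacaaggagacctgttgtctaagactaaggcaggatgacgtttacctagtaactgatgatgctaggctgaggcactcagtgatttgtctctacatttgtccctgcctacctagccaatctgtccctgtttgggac
HLA-DPB1, chr6:33075740-33075989, plus strand: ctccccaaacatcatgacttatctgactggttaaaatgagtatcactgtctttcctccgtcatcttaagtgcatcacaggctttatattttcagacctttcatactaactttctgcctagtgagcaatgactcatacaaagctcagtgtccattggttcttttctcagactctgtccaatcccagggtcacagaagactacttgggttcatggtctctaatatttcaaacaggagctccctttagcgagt
HLA-C, chr6:31272093-31272342, minus strand: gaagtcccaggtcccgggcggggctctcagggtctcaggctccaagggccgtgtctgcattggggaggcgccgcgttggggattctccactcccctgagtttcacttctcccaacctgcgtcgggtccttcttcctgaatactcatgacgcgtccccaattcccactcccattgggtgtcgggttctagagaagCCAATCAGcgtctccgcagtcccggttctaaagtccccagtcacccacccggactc
HLA-B, chr6:31357180-31357429, minus strand: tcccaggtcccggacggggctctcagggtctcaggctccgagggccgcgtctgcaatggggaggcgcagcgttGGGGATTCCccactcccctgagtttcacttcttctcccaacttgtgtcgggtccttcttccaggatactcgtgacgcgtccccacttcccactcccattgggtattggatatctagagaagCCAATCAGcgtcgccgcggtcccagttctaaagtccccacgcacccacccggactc
TAP1, chr6:32853705-32853954, minus strand: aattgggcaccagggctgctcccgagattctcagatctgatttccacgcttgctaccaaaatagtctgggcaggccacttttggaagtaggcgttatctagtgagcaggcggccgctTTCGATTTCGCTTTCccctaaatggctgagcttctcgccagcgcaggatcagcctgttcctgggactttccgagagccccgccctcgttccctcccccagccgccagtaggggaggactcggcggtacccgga

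Positions are counted back from the start, so that −1 is the base before it and each match is given by its first base. A Y box letter match stood at −82 in HLA-DMA, at −49 in HLA-DRB1, at −91 in HLA-DQB1 and at −56 in both HLA-C and HLA-B, where HLA-B also held a kappa B type match at −177. An interferon response type match stood at −119 in HLA-DRB1 and at −152 in HLA-DMB, and a pair that overlap stood at −133 and −127 in TAP1. HLA-DOA and HLA-DPB1 held none of the 5 motifs in this window. Over all 13 class II starts in the table, 6 held the Y box letters, 46.2%, and over the 8 starts of class I and MIC genes 4 did, against 4.52% of all 22131 protein-coding promoters of the same length. The exact X box letters TAGCAAC were in 0 of the 13, which do not include HLA-DRA, and in 2.35% of all promoters. The interferon response type was in 4 of the 13 class II starts and in 3 of 7 antigen processing starts, against 6.07% of all promoters. A match is a run of letters, not a shown binding site. Only these letters and spacings were sought, so a lack of matches does not show that an element is absent. The Y box letters stood both before HLA-DMA, whose start region had a low ratio, and before HLA-DQB1, whose region did not.

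Both libraries were called at like depth as far as the files show it. The number of fragments stacked at a summit, called the pileup here, was solved as a whole number from the deposited fold and p-value, and the genome background that goes with it was 1.79 in primed cells and 1.96 in hTBLCs. Every ratio of hTBLC to primed pileup was divided by the quotient of those, 1.09, and is called the scaled ratio. The primed list reaches down to lower −log10 p values, and so to weaker peaks, than the hTBLC list. Only 6 of the 442 primed members lie below the hTBLC list's lowest −log10 p of 2.83. Cell marker genes were taken at their starts in RefSeq's promoter table or, where it lacks the gene, at either gene end. It lacks 5 of 12 pluripotent, 4 of 12 blood and 7 of 10 fibroblast marker genes. A region counted at those genes need not lie at a start. Of the 12 pluripotent cell marker genes 10 had a region in both libraries, with a summed pileup over the list of 1018 in primed cells and 929 in hTBLCs. Of the 8 with a ratio 3 were over 1.5-fold lower in hTBLCs and none was higher, with a median log2 scaled ratio of −0.40. The lowest were CRIPTO with 83 and 17, PRDM14 with 127 and 65 and NANOG with 35 and 21. SOX2, SALL4 and TERF1 also had scaled ratios below 1. DPPA4 with 55 and 81 and LIN28B with 75 and 107 had scaled ratios above 1, with intervals that include 1. LIN28A with 47 and 91 and DNMT3B with 59 and 85 had more in hTBLCs, but got no ratio. ZFP42, a marker of naive cells, had no region in either library, and POU5F1 is described below. Of 12 blood cell marker genes 4 had a region in both and 3 in 1 library (summed over the list 172 and 198), and PTPRC, CD79A, LAPTM5, CD14 and MS4A1 had none. Of the 4, SPI1 with 42 in primed cells and 77 in hTBLCs and CD3E with 58 and 65 were taken at either gene end. Of 10 fibroblast marker genes 7 had one in both and 2 in hTBLCs only (summed over the list 311 and 354), with THY1 at none, and the part of other cells in the results below was not tested.

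A larger share of MHC regions than of the genome's was found in both libraries, and primed-only regions outnumbered hTBLC-only ones. In primed cells 326 of 442 members touched an hTBLC region, 73.8% (Wilson 95% interval 69.5 to 77.6), and 26.2% did not, where 37.3% of all primed regions did not. In hTBLCs 329 of 403 members touched a primed region, 81.6% (77.6 to 85.1), and 18.4% did not, where 39.2% of all hTBLC regions did not. The regions found in 1 library only numbered 116 in primed cells and 74 in hTBLCs, so hTBLCs held 38.9% (32.3 to 46.0) of them, against 52.1% genome-wide and 53.9% on the rest of chromosome 6.

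The window holds 38.5 protein-coding genes per Mb. It was therefore also set beside the genome's 220 bins of 1 Mb with at least 20 such genes, a yardstick chosen after the data were seen. The 220 count bins of the window itself, but the MHC's own regions were left out. In these bins 68.0% of primed and 74.4% of hTBLC regions were shared. There hTBLCs held 42.4% of the library-only regions, a value inside the interval of the MHC's 38.9%. Over all regions, the shares of shared regions in the MHC were above those of the gene-dense bins, which lay outside the MHC's Wilson intervals. Gene starts made up more of the MHC's regions, 30.5% in primed cells and 33.3% in hTBLCs, against 25.2% and 26.3%. Away from gene starts 76.6% of hTBLC regions were shared (71.2 to 81.2), against 68.9% in the bins. For primed regions there (67.1%, 61.7 to 72.1, against 62.1%) and for gene starts in both libraries the bin values lay inside the MHC's intervals. No test of these differences was possible with 1 library a group, since regions of a library are not replicates.

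The 4 segments had unlike hTBLC-only shares in the full lists. Class I, up to the end of MICB (chr6:29500000-31511124), had 220 primed and 208 hTBLC regions, and hTBLCs held 43 of its 96 library-only regions, 44.8% (35.2 to 54.7). Class III, from there to the end of NOTCH4 (chr6:31511125-32224067), had 106 and 101 regions, and hTBLCs held 21 of 49, 42.9% (30.0 to 56.7). Class II, from there to the end of HLA-DPB1 (chr6:32224068-33089696), was the sparsest, with 59 primed and 47 hTBLC regions or 68.2 and 54.3 per Mb, against 149 and 142 per Mb in class III. hTBLCs held only 6 of its 24 library-only regions, 25% (12 to 44.9). The extended class II segment beyond it (chr6:33089697-33500000) had 57 and 47 regions, and hTBLCs held 4 of 21, 19.0% (7.67 to 40). Over both class II segments hTBLCs held 10 of 45 library-only regions, 22.2% (12.5 to 36.3), an interval that lies below the values of the genome and of the gene-dense bins and overlaps those of class I and class III. The contrast was smaller among stronger regions. Where −log10 q reached 5 or more, the share was 26.9% in class I, 25.9% in class III, 22.2% in class II and 13.0% in extended class II. With a 50% reciprocal overlap it was 45.7%, 46.7%, 35% and 38.1%, and without near-identical copies it was 15% in class II. As a share of all regions, 30.2% of primed regions of the class II segments together were absent from the hTBLC list, while 10.6% of hTBLC regions were absent from the primed list. These shares were 32.0% and 25.6% in the gene-dense bins and 37.3% and 39.2% in the genome. The primed-only share was thus not above either background, and the hTBLC-only share was below both.

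**Figure D1:**
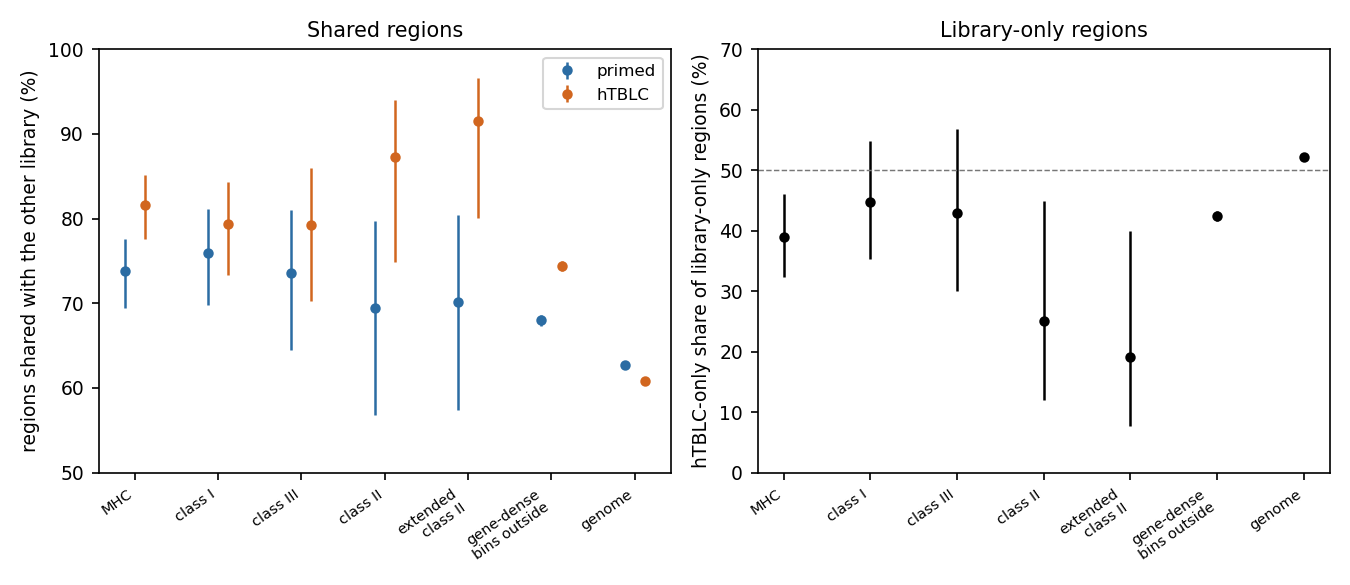
Left, the percentage of primed (blue) and hTBLC (orange) regions that touched a region of the other library, and right, the hTBLC-only share of the regions found in 1 library, for the MHC, its 4 segments, gene-dense bins outside it and the genome; bars are Wilson 95% intervals. The hTBLC-only share was 25% in class II and 19.0% in extended class II, against 44.8% in class I and 52.1% in the genome. Where −log10 q reached 5 or more, class I came to 26.9% and class II to 22.2%.

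The regions that both libraries held had lower pileups in hTBLCs at the median. At the 289 MHC regions matched 1 to 1 the log2 scaled ratio had a median of −0.28, against −0.13 over all 139523 matched regions of the genome and −0.23 in the gene-dense bins. A ratio of more than 1.5 in either direction is called higher or lower here. Of the 289 regions 94 were lower in hTBLCs, 32.5% against 26.8% genome-wide, and 10 were higher, 3.46% against 16.9% genome-wide. The gene-dense bins stood between, with 30.0% lower and 10.5% higher. The exact binomial interval of the ratio lay below 1 at 75 of the 289 regions and above 1 at 7. These intervals were not counted outside the window, so whether their split is particular to the MHC was not tested.

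Gene starts and the rest of the window differed in this. At the 104 matched regions whose summits lay within 1000 bp of a protein-coding gene start in both libraries the median was −0.16 (genome 0.00), with 19 lower (18.3%, genome 14.9%) and none higher (genome 10.7%). Regions not matched 1 to 1 or with a summit farther off are not among these. Counted by gene, 4 of the window's 105 genes with a ratio were higher, LY6G6D among them. At the 185 regions elsewhere it was −0.43 (genome −0.13), with 75 lower (40.5%, genome 28.2%) and 10 higher. Class I gene starts had a median of 0.01 and class III gene starts −0.22, while their regions elsewhere had −0.33 and −0.54. In class II the gene starts had −0.24 over 16 regions and the rest −0.78 over 22, and in extended class II 0.00 over 11 and −0.53 over 20. The lowest of these medians was that of class II away from gene starts. Over the class II segments together 21 of 42 regions away from starts were lower, 50%, against 34.4% in the gene-dense bins away from starts.

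**Figure D2:**
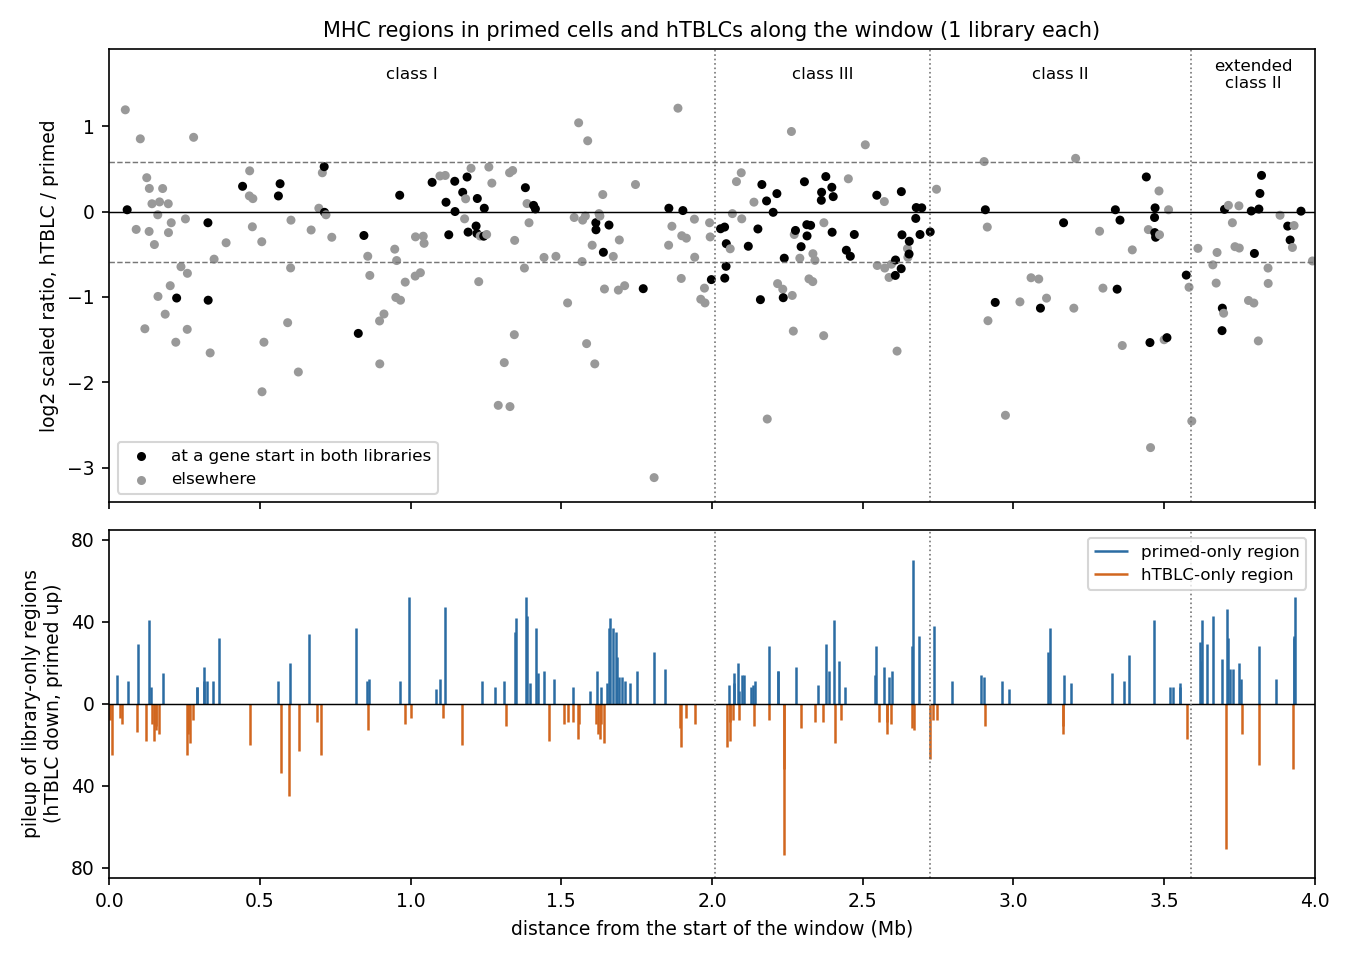
Upper, the log2 scaled pileup ratio of each matched region against its distance from the start of the window, black at gene starts and grey elsewhere, with dashed lines at 1.5-fold; lower, the pileup of each region found in 1 library, primed upwards and hTBLC downwards. Grey points run to −3.11, and in the class II segments 35 primed-only lines stand against 10 hTBLC-only lines. These are 30.2% of primed and 10.6% of hTBLC regions there, against 32.0% and 25.6% in the gene-dense bins.

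The 5 shared regions with the lowest ratios all lay away from protein-coding gene starts. The lowest was at chr6:31307803-31308423 in class I, inside the uncharacterised gene LOC112267902 and 6166 bp from the start of LINC02571, with a pileup of 87 in primed cells and 11 in hTBLCs and a scaled ratio of 0.115 (0.0556 to 0.217). Next came chr6:32955004-32955343, 1907 bp from the HLA-DMA start, with 62 and 10 (0.147, 0.0673 to 0.289). In the pseudogene HLA-DPA2 the region chr6:33091724-33092329 had 55 and 11 (0.183). Near LY6G5C in class III the region chr6:31683120-31683787 had 118 and 24 (0.186), and chr6:32473418-32474043, in the gap between HLA-DRA and HLA-DRB5, had 62 and 13 (0.191). Of these 5, 3 lie among class II genes or pseudogenes, in segments that hold 69 of the 289 matched regions.

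The 5 highest ratios among the regions matched 1 to 1 were smaller in size and none lay in the class II segments. They were chr6:31387074-31387304 in LOC124901300 between HLA-B and MICA, with 15 in primed cells and 38 in hTBLCs (2.31, 1.24 to 4.53), chr6:29552933-29554185 in OR2I1 with 32 and 80 (2.28, 1.5 to 3.56), and chr6:31763408-31763935 at SAPCD1 with 31 and 65 (1.91). A region 12686 bp from HCG4 had 17 and 34 (1.83), with an interval that includes 1, and one in GABBR1, which codes for a subunit of the GABA-B receptor, had 41 and 81 (1.8). OR2I1 and GABBR1 lie within the first 0.2 Mb of the window, at its edge away from the class II genes.

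Among the regions found in 1 library the primed ones had the higher median pileup, 16 against 12.5. A −log10 q of at least 5 was reached by 63 primed-only and 21 hTBLC-only members, and one of 10 or more by 27 and 10. Over the genome the counts were 37788 and 33056 at 5, and 13428 and 11999 at 10. Among the strongest primed-only regions were chr6:32166658-32167159 in EGFL8 and its read-through with PPT2 (pileup 70), one in HLA-E (chr6:30493766-30494101, pileup 52), one at a start of the collagen receptor gene DDR1 (chr6:30882759-30882985, pileup 52) and one in PPP1R10 (chr6:30615316-30615575, pileup 47). By pileup, the strongest hTBLC-only regions were chr6:31737517-31737816, 987 bp from CLIC1 (pileup 74), and chr6:33206506-33207082 in HSD17B8 and 1418 bp from RING1 (71). Next came one 9213 bp from TRIM31-AS1 (45), one in RNF39 (34, with a −log10 q of only 3.95) and one in MSH5 (32, with 3.50). Several lie close to a region of the other library: the MSH5 region is 99 bp away from a primed one and the PPP1R10 region 118 bp away from an hTBLC one, and 16.4% of primed-only and 32.4% of hTBLC-only members lay within 500 bp of the other library's regions. Such pairs are neighbours, not sites far apart.

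The starts of the class II genes showed the widest spread of the 5 immune lists. The 13 genes are the HLA-DR, HLA-DQ and HLA-DP chains and HLA-DM and HLA-DO, which load the peptide. HLA-DMA, a chain of the peptide loader, had a pileup of 156 in primed cells and 59 in hTBLCs, a scaled ratio of 0.345 (exact binomial 95% interval 0.252 to 0.469). HLA-DOA, which holds HLA-DM in check, had 94 and 37 (0.359, 0.239 to 0.531). HLA-DRB1, the main DR beta chain, had 54 and 27 (0.457, 0.277 to 0.738). These 3 start regions had scaled ratios under 0.5 with intervals wholly below 1. HLA-DRA, the alpha chain of all DR molecules, had 21 and 11 (0.478, 0.208 to 1.04), and its interval includes 1. HLA-DPA1 had its strongest region, 90 and 53 (0.538, 0.376 to 0.763), at an upstream start that lies within HLA-DPB1, and 26 and 17 at its other start.

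HLA-DQB1 and HLA-DMB stood apart from these. HLA-DQB1 had 44 in both libraries (0.913, 0.587 to 1.42) and HLA-DMB, the partner chain of HLA-DMA, had 40 and 58 (1.32, 0.870 to 2.03). HLA-DPB1 had a region in hTBLCs only, with a pileup of 17 (exact Poisson interval 9.90 to 27.2), 1919 bp from the nearest primed region. HLA-DRB5, HLA-DQA1, HLA-DQA2, HLA-DQB2 and HLA-DOB had no region within 1000 bp of a start in either library. In all, 5 of the 7 class II genes with a ratio were lower and none was higher, with a median log2 scaled ratio of −1.06. HLA-DMA and HLA-DMB lie side by side, and the intervals of their ratios did not overlap.

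Away from gene starts 12 of the 22 matched regions of the class II segment were lower. The region at chr6:32609748-32610435, 19900 bp beyond the HLA-DRB1 start in the DR to DQ gap, had 59 and 32 (0.495), and 2 neighbours in the gap, at chr6:32614466-32614999 and chr6:32622484-32622824, were in primed cells only, with pileups of 25 and 37. A region 6929 bp from PSMB9 had 65 and 24 (0.337) and one 8991 bp from HLA-DOA had 62 and 24 (0.354). In the HLA-DPB2 pseudogene 3 more regions were in primed cells only (pileups 30, 21 and 41). Against that, chr6:32706393-32706712, inside the pseudogene MTCO3P1 between HLA-DQB1 and HLA-DQA2, had 51 and 86 (1.54, 1.08 to 2.22). That was 1 of 2 regions of the segment that were higher.

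Class I and its relatives had a start region in both libraries at 8 of 8 genes. HLA-E, which presents signal peptides to natural killer cells, had 80 in primed cells and 100 in hTBLCs (1.14, 0.842 to 1.55). HLA-B had low pileups of 16 and 18 (1.03, 0.495 to 2.15), and its summit lay 165 bp after the start in primed cells and at −121 bp from it in hTBLCs. HLA-C, a ligand of natural killer cell receptors, was lower in hTBLCs with 70 and 41 (0.535, 0.355 to 0.798), as was HLA-F with 35 and 19 (0.496, 0.268 to 0.891). HLA-G, known from the trophoblast, had 30 and 16 (0.487, 0.248 to 0.922) at a summit 729 bp beyond its most downstream start in primed cells, and 12 and 12 near its upstream starts. The stress ligands for NKG2D split, with MICA at 77 and 85 (1.01, 0.732 to 1.39) and MICB at 46 and 29 (0.576, 0.349 to 0.936). So 4 of 8 were lower, each with an interval below 1, and none was higher. These genes have near-identical relatives, and where a read could be placed in several copies the authors' alignment decided its position.

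The antigen processing genes, which make and carry the peptides for class I, had ratios near 1 with 1 exception. TAP1 and PSMB9 share 1 region between their starts, with 93 in primed cells and 95 in hTBLCs (0.933, 0.693 to 1.26). TAP2, the partner of TAP1 in the peptide pump, had 81 and 90 (1.01), and TAPBP, which ties the pump to class I, had 51 and 57 (1.02). PSMB8, an immunoproteasome subunit next to TAP1, was the exception with 120 and 70 (0.533, 0.391 to 0.721). Thus 1 of 5 was lower and none higher, and the intervals of PSMB8 and of PSMB9, the other immunoproteasome gene of the MHC, overlapped only between 0.693 and 0.721.

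Cytokine and complement genes were mostly closed or faint in both libraries. TNF had a primed-only region with a pileup of 15 and its summit at −1061 bp from the start, and LST1 one with 20, while LTA, AIF1 and MPIG6B had none. LTB, the membrane partner of lymphotoxin alpha, had 53 and 74 (1.28, 0.884 to 1.85) at a summit 1387 bp after its start in primed cells. NFKBIL1, a relative of the NF-kappa B inhibitors that shares its start region with ATP6V1G2, had 178 and 125 (0.641, 0.506 to 0.811). UBD, a ubiquitin-like modifier, had 9 and 10. NCR3, a natural killer cell receptor, had 6 and 8 and BTNL2, of the butyrophilin family, had 9 and 11 at regions that did not touch each other. Of complement, C2 had 39 and 52 (1.22, 0.789 to 1.89) at the start region it shares with EHMT2, CFB had 25 and 20 (0.731, 0.385 to 1.37), and C4A and C4B, which are near-identical copies, had none.

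**Figure D3:**
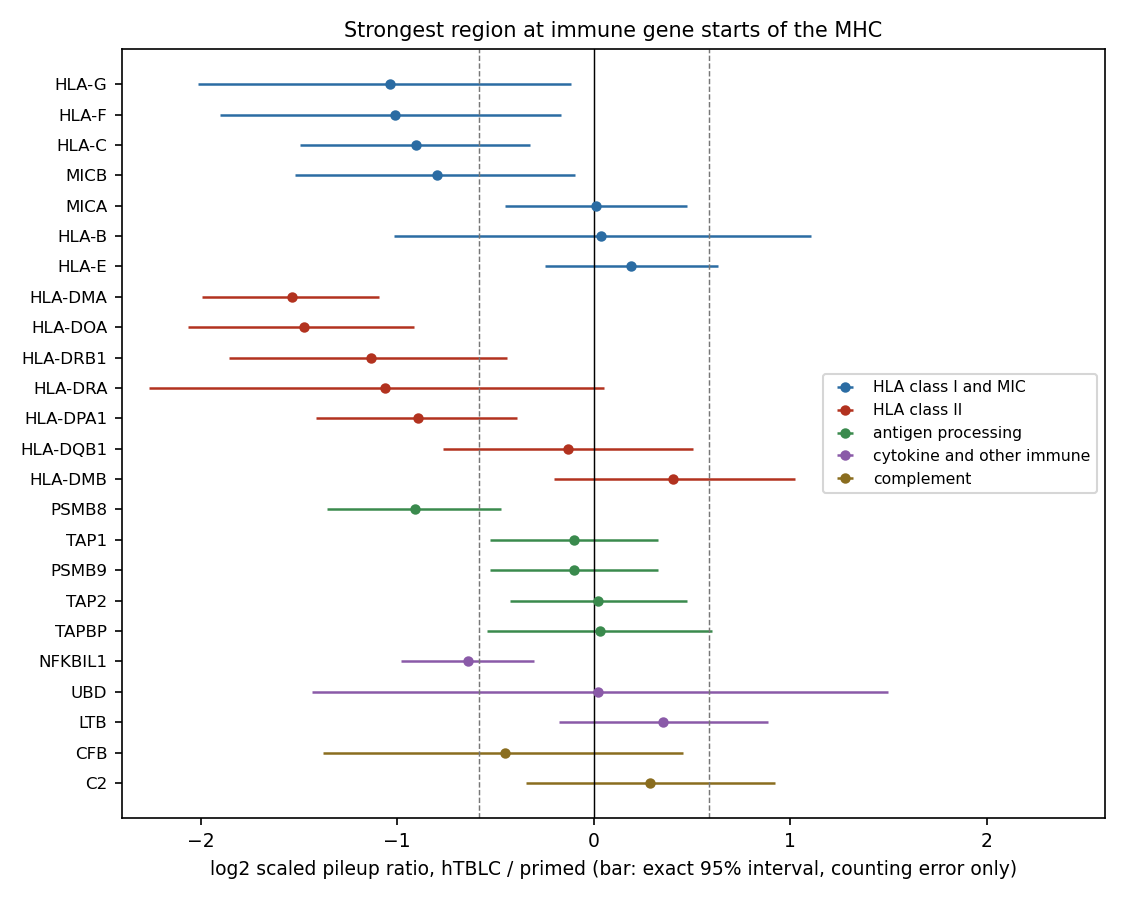
The log2 scaled pileup ratio, hTBLC over primed, at the immune genes with a ratio that are reported here, grouped by list and coloured as in the key; bars are exact binomial 95% intervals and dashed lines mark 1.5-fold. The lowest are HLA-DMA at −1.53 and HLA-DOA at −1.48, and no gene shown lies past the upper dashed line.

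Over the 5 immune lists together 27 of 40 genes had a start region in both libraries, 67.5%, against 78.1% of all 19970 protein-coding genes. Primed cells alone had one at 2 of the 40, 5%, against 3% of all genes, and hTBLCs alone at 1, against 2.39%. Those last counts are near the background and small. Of the 25 immune genes with a ratio 11 were lower in hTBLCs, 44%, against 12.2% of all genes with a ratio, and 0 were higher, against 9.31%. The interval lay below 1 at 10 of the 11. Without the genes that have near-identical copies 5 of 15 were lower, 33.3%, namely HLA-DMA, HLA-DOA, HLA-DRA, PSMB8 and NFKBIL1. Lower starts were also found at other genes of the window. Of the 20 with a ratio on none of the gene lists 5 were lower, 25%, and 1 was higher, with a median log2 scaled ratio of −0.29. Over all 105 genes of the window with a ratio 19 were lower, 18.1%, and 4 were higher, 3.81%.

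The 57 housekeeping genes of the same window had other counts. They cover tubulin (TUBB), heat shock protein 70 (HSPA1A and HSPA1B), ribosomal and splicing proteins (RPS18, LSM2, DDX39B), valyl-tRNA synthetases and chromatin factors. Of these 56 had a start region in both libraries, 98.2%, and none lacked one. Their median pileup was 88 in primed cells and 99.5 in hTBLCs, against 51 and 48 at immune genes. Of 54 with a ratio 2 were lower, 3.70%, against 12.2% of all genes with a ratio, and 2 were higher, 3.70% against 9.31%. Each of these is a pair of genes that shares 1 region. The higher pair, VPS52 and RPS18, is not among the regions matched 1 to 1.

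The lowest housekeeping ratios were nearer to 1 than the lowest immune ones, and the highest ratio, 1.52, was above the highest immune ratio of 1.32. GNL1 and PRR3, which share a start region, had 80 in primed cells and 50 in hTBLCs (0.571, 0.393 to 0.823). MSH5 had 184 and 138 (0.685), and NELFE and SKIC2 shared 126 and 96 (0.696). At the other end the vesicle tethering gene VPS52 and the ribosomal protein gene RPS18 shared 45 and 75 (1.52, 1.04 to 2.25), followed by the actin-binding gene PPP1R18 with 69 and 100 (1.32), the small nuclear ribonucleoprotein gene LSM2 with 38 and 53 (1.27) and the translation factor gene ABCF1 with 98 and 136 (1.27). The most open start, HSPA1B, had 239 and 234. The median log2 scaled ratio of the group was −0.00, and −0.16 with each shared region counted once, against −0.13 and −0.29 at the immune genes counted in the same ways. The immune median was −0.45 both with a 50% reciprocal overlap and with 2500 bp around starts, where the housekeeping median was 0.01 and −0.00, so how far the medians lie apart depends on these settings. Genes of 1 library are not replicates, so the difference between the groups was not tested.

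The exception among housekeeping genes was RING1, which codes for a Polycomb ubiquitin ligase of histone H2A. Its start had a region in primed cells only, chr6:33208510-33208896, with a pileup of 46, 117 bp after the start. The nearest hTBLC region was 1427 bp away. That hTBLC region, chr6:33206506-33207082 with a pileup of 71, was itself without a primed counterpart, and lies 1418 bp from the start, outside the 1000 bp counted. CLIC1 and RGL2 likewise had a strongest region in each library that did not overlap the other's, with 79 in primed cells and 74 in hTBLCs at CLIC1 and 94 and 53 at RGL2, and they got no ratio.

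**Figure D4:**
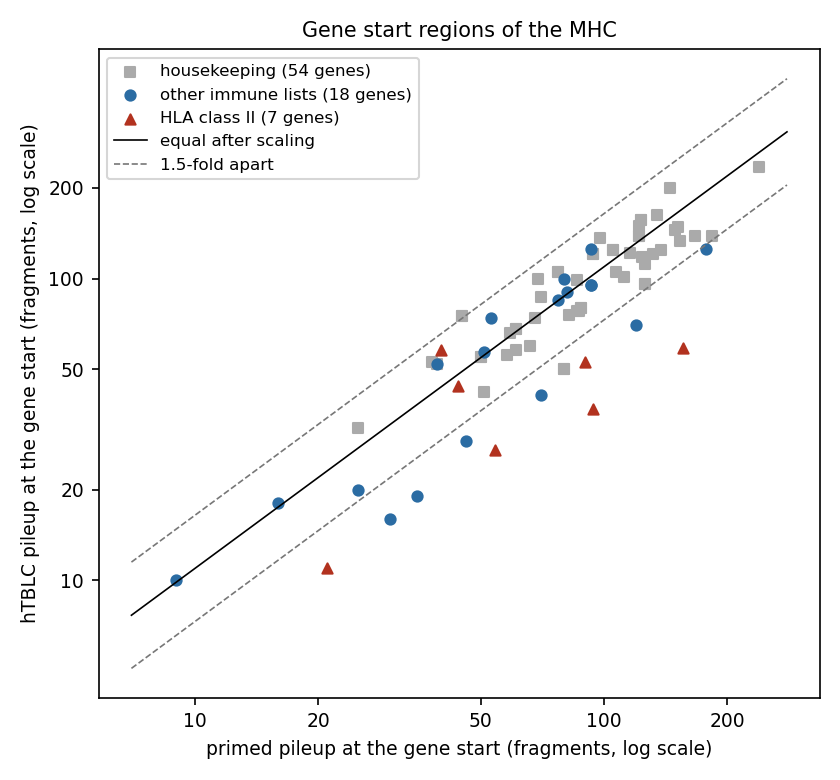
The hTBLC pileup against the primed pileup at the strongest start region of each gene, both on log axes, for 54 housekeeping genes (grey squares), 18 genes of the other immune lists (blue circles) and 7 HLA class II genes (red triangles); the solid line is equality after scaling and the dashed lines are 1.5-fold apart. Of the red triangles 5 lie below the lower dashed line, and of the grey squares 2 genes that share 1 region do.

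Promoter base composition differed between the gene groups and was set beside these counts. Over the 250 bases before the start, the CpG observed to expected ratio was at a median of 0.276 over 46 starts of immune genes and 0.766 over 77 starts of housekeeping genes, and 12 of 13 class II starts fell in the lowest tertile of all promoters (up to 0.492). In that tertile 43.3% of all promoters had a region in both libraries, as did 15 of 30 immune starts, 50%, and 10 of 11 housekeeping starts. In the middle tertile the shares were 90.8%, 12 of 13 and 39 of 39. Of the 12 immune starts without a region in either library 11 were in the lowest tertile.

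The ratios were set beside composition in the same way. In the lowest tertile 21.9% of all promoters with a ratio were lower, and 5 of 14 immune starts were, 35.7%, and 0 of 10 housekeeping starts. In the middle tertile 11.9% of all promoters were lower, against 7 of 12 immune starts, 58.3%, and 2 of 37 housekeeping starts, 5.41%. In the highest tertile 7.52% of all promoters were lower, against 1 of 3 immune starts and 1 of 26 housekeeping starts. Among the 12 middle-tertile immune starts are those of HLA-C, HLA-F, PSMB8 and NFKBIL1. Starts of 1 gene can share a region, so these counts are of starts and not of independent sites.

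**Figure D5:**
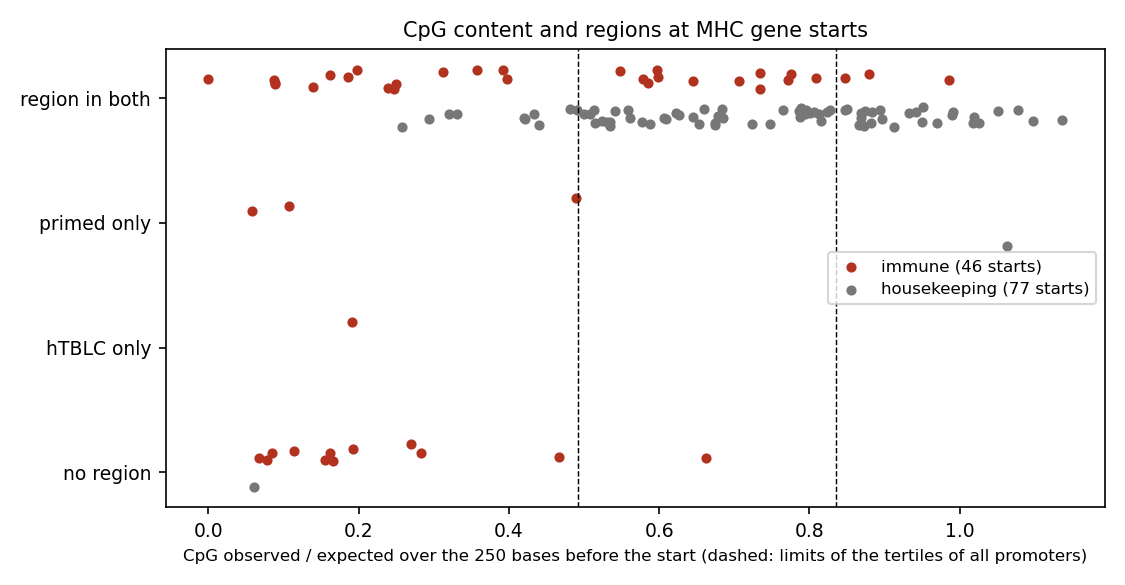
The CpG observed to expected ratio over the 250 bases before each start, for 46 starts of immune genes (red) and 77 of housekeeping genes (grey), by whether a region lay within 1000 bp in both libraries, in 1 or in none; dashed lines are the limits of the tertiles of all promoters, 0.492 and 0.836, and points are spread vertically at random for legibility. Immune starts with no region lie with 1 exception left of 0.492.

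The regulators of these genes that lie elsewhere in the genome had a region in both states at 19 of 20, 95%, against 78.1% of all protein-coding genes. The promoter table lacks 6 of the 20, CIITA and NLRC5 among them. For those a region at either gene end was counted, which need not lie at the start. CIITA, the class II coactivator, had 52 in primed cells and 78 in hTBLCs (1.37, 0.952 to 1.99). The end of the gene at which this CIITA region lies was not determined, so its promoter may not have been measured. NLRC5, its class I counterpart, had 48 and 28 (0.533, 0.322 to 0.866), the only one of the 18 with a ratio that was lower. B2M, the class I light chain, had 74 and 102 (1.26), and RFX5 of the X box complex had 145 and 188 (1.18). ERAP2, which trims class I peptides, had a region in primed cells only, with a pileup of 10. None of the 18 ratios was past 1.5-fold in the other direction. Of all protein-coding genes with a ratio 12.2% were lower and 9.31% were higher.

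POU5F1, the pluripotency factor gene that lies in the class I segment, had a primed-only region with a pileup of 37. It lies at chr6:31170581-31170794, across the gene's boundary at chr6:31170682, and 980 bp from the nearest hTBLC region. The promoter table lacks this gene, so both gene ends were used. In the 0.1 Mb from chr6:31100000 to chr6:31200000, 9 of 23 primed regions and 5 of 20 hTBLC regions had no counterpart. This stretch held more primed regions than any other of the 40 stretches of that length, and its primed-only share was near the genome's 37.3%. The 2 stretches from chr6:33100000 to chr6:33300000, with COL11A2 and RING1, had 6 of 14 and 6 of 20 primed regions without a counterpart, and 0 of 9 and 2 of 17 hTBLC regions. Over the genome 37.3% of primed and 39.2% of hTBLC regions had none. The primed shares of these stretches lay on either side of that value, and their hTBLC shares lay below it.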

How the data were processed

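The authors aligned reads to hg38 with Bowtie2, handled them with Picard and called peaks with MACS2, per the submitters' processing notes, which give no versions. Reads per library, the read extension and duplicate handling have no entry in the labels. Each deposited peak list gives the summit, a score (not used), the authors' fold over background as a linear ratio, and −log10 p and −log10 q. The numbering in the lists lacks 252 primed and 327 hTBLC peaks, so a region there counts as absent. From fold and −log10 p the pileup was solved as a Poisson tail; 99.999% and 99.998% of peaks gave a whole number within 0.001 in −log10 p.

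Touching peaks on chromosomes 1 to 22 and X were joined, and regions were shared with an overlap of at least 1 bp. The ratio was scaled by the genome backgrounds, which takes fragment extension to be alike in both libraries. The strongest region within 1000 bp of any start in RefSeq's promoter table stood for a gene, and 16 of the 154 protein-coding genes of the window that the table lacks (HLA-E, HLA-DRA, C4A, C4B and POU5F1 among them) were taken at both gene ends. Over the genome 4159 of the 19970 protein-coding genes were taken in this way. A ratio was given where the strongest regions overlapped. Intervals are Wilson (shares), exact Poisson (pileups) and exact binomial (ratios), at 95%, and cover counting error only. The ratio step was tested on simulated data.

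The members and gene lists were chosen with earlier results of these data known. Genes named are the immune genes, the 5 highest and 5 lowest housekeeping ratios, genes with a region in 1 library only, POU5F1, and the 5 strongest library-only regions per library and 5 highest and 5 lowest ratios with pileups summing to at least 40. Genes and regions of the class II segment outside that rule (the gaps between its genes), CLIC1 and RGL2, HSPA1B, the genes of the closing section with a region in both libraries, the regulators elsewhere in the genome and the 0.1 Mb stretches were chosen after their values were seen. The values of 1 immune gene and 1 strong primed-only region are not reported here, though counts include them. Exons and introns were not determined. Python 3.11.15, pandas 2.3.3, scipy 1.17.1 and statsmodels 0.14.6 were used.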

Additional observations from a re-analysis of the deposited data

How the results depend on the processing

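Of 202 recomputed values, 89 that answer a comparison and 84 others stayed within the reported value's 95% interval (for medians, taken over regions or genes by rank) or, for counts, within 1.5 times. The 14 others that answer a comparison follow. With a common lowest −log10 p, 2 immune genes had a region in hTBLCs only. With a −log10 q of at least 5, 88.85% of hTBLC members were shared and hTBLCs held 23.7% of library-only members. With 50% reciprocal overlap, 62.22% of primed and 68.24% of hTBLC members were shared. Without scaling, the median log2 ratio was −0.152 at MHC regions and 0.1297 at housekeeping starts, where the sign turned from a value of −0.00, and 0 at immune starts. With 500 bp around starts 1 immune gene had a primed-only region, and with 2500 bp 0 immune genes had an hTBLC-only and 0 housekeeping genes a primed-only region. The next were chosen after the data were seen. With each region counted once, 1 housekeeping gene was lower. Without near-identical copies, 17 immune genes had a region in both libraries, 0 in hTBLCs only, and 5 were lower, from fewer genes. No paired analysis was possible because each group has 1 library. The low pileups at HLA-B and UBD allow only wide intervals.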

Other observations

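Some further gene groups of the window were open in 1 or both libraries. Of the 6 TRIM genes of the class I segment, a family of RING finger proteins with roles in antiviral defence, TRIM39 had 108 in primed cells and 44 in hTBLCs at its start (0.372), TRIM26 had 92 and 145 (1.44), TRIM15 had 34 in primed cells only, and TRIM10, TRIM31 and TRIM40 had none. Of the 5 LY6 genes of class III, which code for small cell surface proteins, LY6G6D had 18 and 43 (2.18), the highest ratio at a gene start of the window, LY6G5C had 31 and 37 (1.09), and LY6G5B, LY6G6C and LY6G6F had none. Of 7 mucin and skin genes, PSORS1C2 had 61 and 48 (0.719), PSORS1C1 had 21 in both, MUCL3 had 16 in primed cells only, and CDSN, MUC21, MUC22 and SFTA2 had none. MOG, a myelin gene, had 11 in hTBLCs only. ZFP57, which codes for a zinc finger protein that guards imprinted DNA, had no start region in either library.

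At the ubiquitin ligase gene RNF39 the start had 43 in primed cells and 22 in hTBLCs (0.467). A region in its body was among the strongest by pileup found in hTBLCs only, though its −log10 q was 3.95. COL11A2, a cartilage collagen gene, had 28 and 14 (0.457) at its start, and C6orf47 had 112 and 60 (0.489).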
